A study of Mus musculus with 4 samples.

Results

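The nuclear genes that encode the subunits of the oxidative phosphorylation complexes were examined in single cells from livers of mice on a diet that models steatohepatitis. Genes were taken by symbol, as those beginning with Nduf, Uqcr, Cox4, Cox5, Cox6, Cox7, Cox8 or Atp5, together with Sdha, Sdhb, Sdhc and Sdhd. Symbols ending in -ps were left out, and a gene had to hold at least 100 unique molecular identifiers (UMIs, each standing for 1 captured transcript) over the 4 count matrices. This gave 90 genes of the 33696 in the files. They comprised 38 genes of complex I, 4 of complex II, 8 of complex III, 14 of complex IV and 17 of complex V, with 9 assembly factors (Ndufaf1 to Ndufaf8 and the supercomplex factor Cox7a2l). Of the symbols that fit by name, 6 fell under the limit. These were Cox8c and Ndufb11b with 0 UMIs, Ndufa4l2 and Cox7b2 with 1 each, Cox8b with 3 and Cox4i2 with 28. Just inside the limit were Cox7a1 with 261 UMIs, Cox6a2 with 399, Ndufb4b with 591 and Cox6b2 with 712.

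Oxidative phosphorylation couples the oxidation of NADH and succinate to the production of ATP at the inner mitochondrial membrane. Complexes I and II pass electrons through ubiquinone to complex III, cytochrome c carries them to complex IV, where oxygen is reduced, and complex V (ATP synthase) uses the proton gradient that complexes I, III and IV build. Most subunits are encoded in the nucleus and imported, while a core set of complexes I, III, IV and V is encoded by mitochondrial DNA, so that each of these complexes draws on both genomes. In the immune cells of the liver, resting lymphocytes rely largely on this pathway, whereas neutrophils hold few mitochondria and live mainly on glycolysis.

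All mice were male C57BL/6J and ate the FPC diet (Fructose, Palmitate, Cholesterol, and Trans-Fat), and no animals on a normal diet were part of the design. P-LC24 was the low cholesterol group (0.05% cholesterol) at week 24, and P-HC24 was the high cholesterol group (1.25%) at week 24. I-LC32 came from the low cholesterol mice after 32 weeks at 0.05%, and I-HC32 came from the high cholesterol mice at week 32, after 8 weeks at 0.05%. Fine needle aspirates (FNA) of 4 lobes from each of 3 mice were pooled into 1 library a group, and the same mice were sampled at both weeks, so that each group is 1 sample and no test between groups could be made. The progression comparison (Prog) set P-HC24 against P-LC24, and the intervention comparison (Int) set I-HC32 against I-LC32. Intervals on these ratios are exact 95% intervals for the UMI counts alone and hold no spread between animals.

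After filtering, the libraries held 4930, 6532, 6978 and 6919 cells (P-LC24, P-HC24, I-LC32, I-HC32) and 38508753 to 77016619 UMIs, with a median of 6297.5 to 8540.0 UMIs a cell. Pairs of libraries shared 12 to 29 cell barcodes. The share of mitochondrially encoded UMIs ran from 3.88% to 5.08%, that of ribosomal protein genes from 25.0% to 30.1%, and that of haemoglobin genes from 0.35% to 1.74%. The estimated share of free RNA was 1.31%, 1.65%, 2.52% and 6.69%. The cells were labelled as non-parenchymal, and most were lymphocytes. Clusters were built without the 90 genes and were named from marker lists only where the markers led; the others carry their number. Cluster 3 held markers of both T cell lineages, cluster 9 monocyte markers, cluster 12 monocyte and dendritic cell markers, and cluster 8 naive B cell markers at low depth with a median mitochondrial share of 7.64%.

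The 90 genes lay on 19 chromosomes, 87 on autosomes and 3 on X, with at most 8 on any 1 chromosome. They were short, with a median coding length of 438 bases against 1185 for protein coding genes as a whole. In 6 of them the gene body overlapped another protein coding gene on the same strand. Ndufb4b, a single-exon gene at chr19:25010486-25010967 (GRCm39, plus strand) inside Dock8 and a near copy of Ndufb4, is one of these, and the counts of Ndufb4 and Ndufb4b are therefore uncertain. The others were Ndufa13, Ndufb2, Ndufb8, Ndufb9 and Atp5o, where Atp5o overlapped a second entry under its own current symbol, Atp5po. Whether these overlaps changed their counts was not tested.

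Promoter windows of 300 bases (250 before to 50 after the start) were found for 76 of the 90 genes in a RefSeq table of build GRCm38.p6. A gene was counted for a motif if any of its windows held the letters. The core CGCATGCG of the nuclear respiratory factor NRF1, a factor known for its sites in genes of the respiratory chain, occurred on either strand in 11 of the 76 genes (14.5%). The share was 2.07% of all 27025 genes. The ETS letters CCGGAAG occurred in 19 (25.0%) against 9.93%, the YY1 letters AAGATGGC in 11 (14.5%) against 3.19%, and the SP1 letters GGGCGG in 34 (44.7%) against 38.2%. The NRF1 letters stood in 4 of 15 genes of complex V but in 2 of 34 of complex I. The YY1 letters stood in 7 of 34 genes of complex I and in none of complexes II, III and IV. A match is a description of the letters and not a measured site. The windows below show such matches in genes that the results return to, with the motif in capitals; all 4 of the first set carry NRF1 letters and all 4 of the second ETS letters, which read CTTCCGG where the motif lies on the other strand.
Ndufaf4: cagatgtctgCGCATGCGcctgtgcgga
Cox6a1: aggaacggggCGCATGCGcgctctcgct
Atp5k: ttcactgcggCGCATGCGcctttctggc
Atp5g2: gctccggccgCGCATGCGcagagccttc
Ndufs3: ccgcgtccgcCCGGAAGaagagtcactg
Sdhd: cgtctcctgcCTTCCGGttcacgcttca
Uqcr11: tctctcctccCCGGAAGtagatgtcaat
Atp5e: acggccacagCTTCCGGtagccgctcgg

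The Ndufaf4 window lay at chr4:24897961-24897988 (plus strand), the Cox6a1 window at chr5:115349102-115349129, the Atp5k window at chr5:108434431-108434458 and the Atp5g2 window at chr15:102671071-102671098 (minus strand for these 3). The Ndufs3 window lay at chr2:90904731-90904758, the Sdhd window at chr9:50603878-50603905, the Uqcr11 window at chr10:80406870-80406897 and the Atp5e window at chr2:174464186-174464213, all on the minus strand. In Prog the medians of genes with and without a motif lay close together, with no test made. The median log2 ratio in Prog was 0.23 over 10 compared genes with the NRF1 letters and 0.30 over 61 without, and 0.24 over 18 with the ETS letters and 0.30 over 53 without. In Int the medians with and without were 0.01 and 0.01 for NRF1, -0.07 and 0.02 for ETS, -0.09 and 0.01 for YY1, and 0.06 and -0.02 for SP1.

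Over all cells, the 90 genes took a larger part of the transcripts in P-HC24 than in the other libraries. Levels are given as CPM, the UMIs of a gene scaled to a common library total (each UMI is 1 captured 3′ end, whatever the transcript length), and sets of 4 values follow the order P-LC24, P-HC24, I-LC32, I-HC32. The summed level was 12631, 14908, 12604 and 12371 CPM. P-HC24 thus stood alone, and the other 3 libraries lay close together. The log2 ratio was 0.24 (0.23 to 0.24) in Prog and -0.03 (-0.03 to -0.02) in Int. For week 32 over week 24 it was -0.27 in the high cholesterol mice and -0.00 in the low cholesterol mice.

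**Figure D1:**
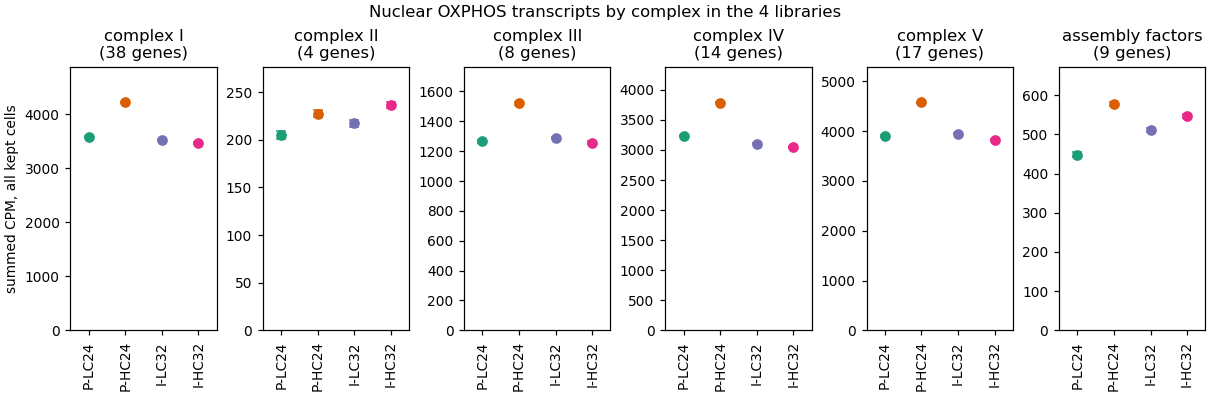
Summed level of each complex in all kept cells (CPM, axes from 0) in the 4 libraries, 1 point for each library with its exact 95% counting interval. P-HC24 is the highest library for complexes I, III, IV and V, while complex II is highest in I-HC32.

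Of the 83 genes with at least 100 UMIs over the pair and UMIs in 10% or more of cells in 1 or both libraries, 72 had a ratio above 0 in Prog. The 7 not compared were Ndufb4b, Cox6a2, Cox6b2, Cox7a1, Ndufaf1, Ndufaf5 and Ndufaf6, all of low level. By a limit of 1.2-fold, 43 were higher, where 16.5% of all 7069 genes compared were higher, and 2 were lower, where 47.5% of all genes were lower. The median log2 ratio of the members was 0.28 and that of all genes -0.23. Relative to that median, the ratio of the sum was 0.47 and 71 members were higher, and at 1.5-fold on the unshifted scale 4 were higher. In Int, 43 of 83 were above 0. There 1 was past 1.2-fold higher (background 13.4% of 7741 genes) and 4 were past it lower (background 12.2%), with medians of 0.01 for the members and -0.01 for all genes. The low cholesterol mice at week 32 against week 24 had 20 members higher (background 18.6% of 7088) and 12 lower (background 18.3%). The high cholesterol mice had 1 higher (background 37.3% of 7725) and 33 lower (background 4.53%), with medians of -0.16 for the members and 0.20 for all genes.

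Complex I, the NADH dehydrogenase, summed to 3588, 4220, 3533 and 3466 CPM, with log2 ratios of 0.23 (Prog) and -0.03 (Int). By the same limit, 23 of the 37 compared complex I genes were higher in Prog. Among the 7 nuclear core subunits, which hold the flavin and the iron-sulphur clusters or line the quinone site, 6 passed this fold. Ndufv1, which binds the flavin, had 24.6, 33.8, 32.9 and 36.7 CPM and was lowest in P-LC24. Ndufs1, the largest core subunit, was the exception with 33.2, 28.8, 28 and 28.8 CPM, highest in P-LC24.

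The accessory subunits of complex I spread more widely. Ndufb8 had 86.4, 130, 106 and 116 CPM, a Prog ratio of 0.59 (0.53 to 0.65). Ndufa13, the highest of complex I by mean level, had 193, 252, 218 and 208 CPM. Both were highest in P-HC24, as most of the complex was. Ndufb1, in contrast, had 279, 213, 163 and 118 CPM, lower in the library of the high cholesterol mice at both weeks (-0.39 in Prog and -0.46 in Int, where both libraries came from mice then at 0.05%) and lower at week 32 than at week 24 in both sets of mice. Ndufa3 had 175, 142, 95.9 and 83.9 CPM and a Prog ratio of -0.30 (-0.35 to -0.26). Ndufb1 and Ndufa3 were the 2 members past 1.2-fold lower in Prog. In Int the highest of the complex was the core subunit Ndufs3 at 0.21 (0.15 to 0.27), from 51.8, 68.9, 62.1 and 71.7 CPM over the libraries.

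Complex II, succinate dehydrogenase, is the one complex with no mitochondrially encoded subunit and the one shared with the citric acid cycle. It ran differently, with 205, 227, 217 and 237 CPM and thus its highest level in I-HC32. Its ratio was 0.15 (0.11 to 0.19) in Prog, an interval that lay below that of the 90 genes together, and 0.12 (0.09 to 0.15) in Int, an interval that lay above it. Sdhd, a membrane anchor, had 29.8, 48.4, 40.1 and 43.7 CPM, and its Prog ratio of 0.70 (0.60 to 0.80) was the largest among the 83 genes compared. The other anchor, Sdhc, had 28.4, 32.4, 29.3 and 33.1 CPM. Sdha, the flavoprotein, stayed in a narrow range with 80.6, 76.4, 75.8 and 78.4 CPM. Sdhb, the iron-sulphur subunit, was highest in I-HC32, with 66.0, 70.2, 72.1 and 81.4 CPM. Most of the difference in complex II between P-HC24 and P-LC24 was that of Sdhd, 1 of its 4 subunits.

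Complex III, the cytochrome bc1 complex, summed to 1265, 1522, 1288 and 1257 CPM, and 4 of 8 genes were past 1.2-fold higher in Prog. Uqcrb had 152, 210, 158 and 176 CPM and the largest ratio, 0.47 (0.42 to 0.51). Uqcr11 had 116, 160, 105 and 101 CPM and a ratio of 0.46 (0.41 to 0.52). Both were highest in P-HC24. Within cell classes, the Prog ratio of Uqcr11 was smaller, with a median of 0.20 and 9 of 10 classes compared above 0. Peritoneal macrophage-like cells, in which Uqcr11 was high, were 0.81% of kept cells in P-LC24 and 7.10% in P-HC24. The part of these shares in the all-cell ratio was not tested. The core protein Uqcrc1, at 55.4, 56.5, 58.6 and 62.8 CPM, gave 0.03 (-0.05 to 0.11), an interval that held 0, while the Rieske iron-sulphur subunit Uqcrfs1, at 74.2, 95.7, 93.9 and 96.9 CPM, was low in P-LC24 alone. Uqcr10 was the lowest of the complex in Int, at -0.20 (-0.24 to -0.15).

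Complex IV, cytochrome c oxidase, summed to 3234, 3788, 3105 and 3049 CPM, and 5 of its 11 compared genes were past 1.2-fold higher in Prog. Cox5a had 153, 222, 184 and 202 CPM and the largest ratio, 0.54 (0.49 to 0.58). Ndufa4, once counted with complex I and now with complex IV, had 253, 341, 271 and 275 CPM, with P-HC24 the highest. Cox7c, one of the smallest subunits, was one of the genes lower at week 32 in both sets of mice, with 458, 430, 316 and 287 CPM. Cox6c had 359, 403, 324 and 263 CPM and an Int ratio of -0.30 (-0.33 to -0.27). Cox6a1, the widespread form of subunit VIa, had the largest Int ratio among the complex IV genes, 0.24 (0.20 to 0.28), from 164, 173, 131 and 155 CPM, with I-LC32 the lowest library.

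Complex V, ATP synthase, was the most abundant at 3891, 4573, 3948 and 3817 CPM, and 9 of 17 genes were past 1.2-fold higher in Prog. Atp5o, the stalk subunit OSCP, had 108, 163, 145 and 155 CPM and a Prog ratio of 0.60 (0.54 to 0.65). Atp5b, the catalytic beta subunit, had 201, 254, 257 and 282 CPM and the highest Int ratio of the complex, 0.13 (0.10 to 0.16). These 2 were lowest in P-LC24. Of the 5 small membrane subunits of the complex, 3 took another course. Atp5k had 156, 131, 92.4 and 74.6 CPM, Atp5md 176, 154, 106 and 93.6 CPM, and Atp5mpl 219, 210, 161 and 134 CPM, each highest in P-LC24, then P-HC24, then I-LC32, and lowest in I-HC32. The other two, Atp5j2 with 241, 287, 217 and 191 CPM and Atp5l with 377, 421, 331 and 307 CPM, were highest in P-HC24 as the complex was. Atp5k and Atp5mpl were among the 4 members past 1.2-fold lower in Int, with ratios of -0.31 (-0.36 to -0.26) and -0.27 (-0.31 to -0.23). The 3 genes for subunit c, which forms the rotating ring, differed in Prog. Atp5g1 gave 0.43 (0.38 to 0.48), Atp5g2 0.31 (0.28 to 0.34) and Atp5g3 0.09 (0.04 to 0.15), and these intervals did not overlap. Atpif1, the inhibitor of ATP synthase, is outside the gene set and had 91.2, 150.5, 116.0 and 130.7 CPM.

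The assembly factors summed to 448, 577, 512 and 546 CPM with a Prog ratio of 0.37 (0.34 to 0.39). Nearly all of the difference between P-HC24 and P-LC24 was that of Cox7a2l. This gene joins complexes III and IV into supercomplexes and is made in a shortened form in C57BL/6 mice. Cox7a2l had 284, 412, 346 and 378 CPM and a ratio of 0.54 (0.51 to 0.57). It was the 1 gene of 6 compared assembly factors past 1.2-fold higher in Prog. The Ndufaf genes went both ways. Ndufaf1, Ndufaf3, Ndufaf7 and Ndufaf8 were higher in P-HC24 than in P-LC24, and Ndufaf2, Ndufaf4, Ndufaf5 and Ndufaf6 lower. Ndufaf4, a complex I assembly factor, had 25.3, 21.3, 22.5 and 27.5 CPM and was the single member past 1.2-fold higher in Int, at 0.29 (0.19 to 0.39). In Prog it gave -0.25 (-0.37 to -0.13), so that its course was opposite to that of the subunits of complex I.

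The ratios of the genes went with their coding length, a split that was chosen after the values were seen. Among the 18 members with under 300 coding bases, the median log2 ratio of week 32 over week 24 in the high cholesterol mice was -0.60, and none of the 18 was above 0. It was -0.15 for the 44 members with 300 to 600 bases and 0.02 for the 21 with more. In the low cholesterol mice, which share no library with the former, the medians were -0.26, 0.08 and 0.26. In Int they were -0.16, 0.01 and 0.08, and in Prog 0.15, 0.31 and 0.35. Across the 83 genes, Spearman's rho of ratio with coding length was 0.84 and 0.66 for the weeks (high and low cholesterol), 0.59 for Int and 0.24 for Prog.

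Cytosolic ribosomal protein genes, also short and abundant, ran the same way, with rho of 0.79, 0.69, 0.57 and 0.47 in the same order over 89 or 90 genes. Other genes gave 0.37, -0.31, -0.15 and -0.51, so that in 3 of 4 comparisons their sign was opposite. In all, 11 of 83 members were past 1.2-fold lower at week 32 in both sets of mice, where 2.14% of all 7008 genes compared in both were. They were Ndufa1, Ndufa3, Ndufa5, Ndufb1, Ndufb4 and Ndufc1 of complex I, Cox7c of complex IV, and Atp5e, Atp5k, Atp5md and Atp5mpl of complex V. None was higher in both (background 7.25%). The 2 sets of week ratios had a Pearson correlation of 0.78 (Spearman 0.69) across the 83 genes, and Prog and Int of 0.47 (0.46). These are correlations across genes that share libraries and depth, given as a description. RNA quality was not measured in these files apart from the shares given above, and its part in this pattern was not tested.

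**Figure D2:**
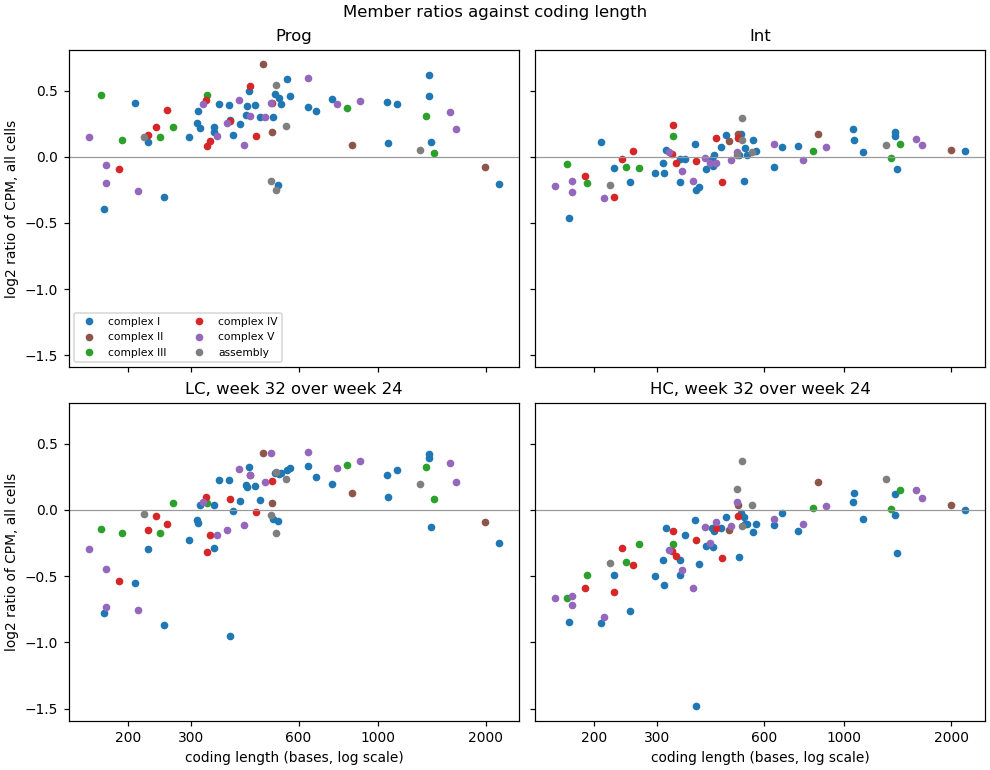
Log2 ratio of each compared gene (points) against coding length in bases (log axis) in the 4 comparisons of libraries, coloured by complex. Members with under 300 coding bases lie lowest in the week comparisons, with medians of -0.60 and -0.26.

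Within cell classes, the direction of Prog was mostly shared. Of 12 classes that held 50 cells or more on either side, the summed members were above 0 in 11 and below in 1, each with an interval that left out 0. The classes had a median log2 ratio of 0.19. B-1-like cells gave 0.18 (0.17 to 0.19), naive B-like cells 0.21 (0.20 to 0.22), cluster 3 0.21 (0.20 to 0.23), NK-like cells 0.30 (0.27 to 0.34) and cluster 9 0.32 (0.29 to 0.34). Neutrophil-like cells were the exception among the 12 at -0.07 (-0.14 to -0.00), from 6575 CPM in P-LC24 to 6273 in P-HC24, with 24 members compared. Peritoneal macrophage-like cells were not among the 12, as P-LC24 held 40 of them. There too the members took a smaller share in P-HC24, 1.84% of UMIs against 1.94% in P-LC24. Cluster 8, from 4628 to 11019 CPM, gave the largest ratio, 1.25 (1.16 to 1.34), over 81 and 165 cells. Other measures of these cells moved with it. Ribosomal protein genes took 6.66% of the UMIs of cluster 8 cells from the P-LC24 library but 23.1% of those from P-HC24, where the median depth was 4623 UMIs a cell against 2377; their part in the ratio was not tested.

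In Int, the sums were below 0 in all 12 classes and the interval left out 0 in 10. They ran from -0.20 (-0.22 to -0.18) in CD8 T-like Tox cells to -0.01 (-0.05 to 0.03) in erythroid-like cells, with cluster 12 at -0.19 and peritoneal macrophage-like cells at -0.13. The sum over all cells, -0.03, was nearer 0 than in most classes. The class shares of cells differed between these libraries, with 633 peritoneal macrophage-like cells in I-HC32 against 75 in I-LC32. With shares fixed the sum was -0.0787.

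**Figure D3:**
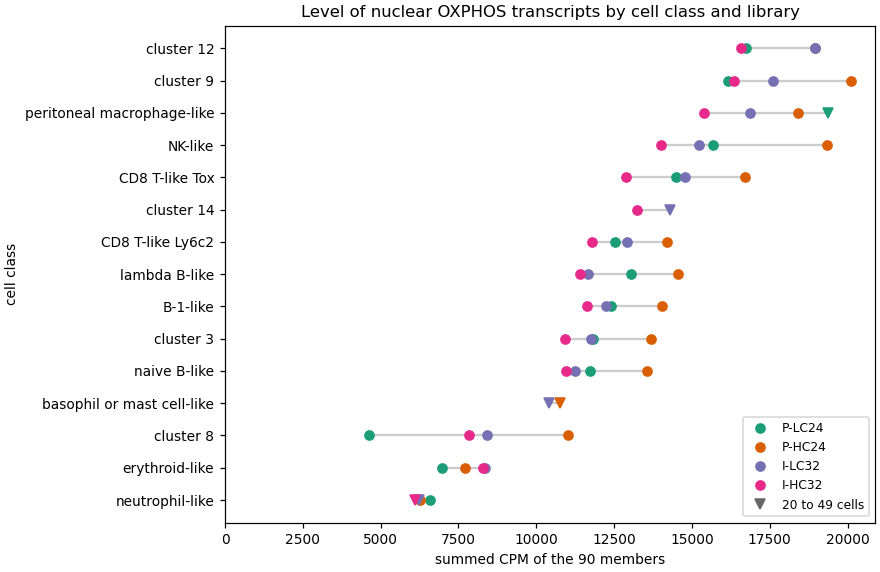
Summed level of the nuclear oxidative phosphorylation genes (CPM, axis from 0) in each cell class and library, 1 point for each library with at least 20 cells (triangles for 20 to 49 cells), for classes with 2 or more such libraries, which leaves out hepatocyte-like cells. Of the classes drawn, cluster 12, cluster 9 and peritoneal macrophage-like cells have the highest means, with libraries at 15386 to 20118, and neutrophil-like cells the lowest, at 6107 to 6575.

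Complexes I, III, IV and V followed this pattern, and complex II did not. P-HC24 was the highest library for all members in 9 of 11 classes with 4 libraries, for complexes III and IV in 10 and for complexes I and V in 9, and I-HC32 was the lowest for all members in 8. For complex II, P-LC24 was lowest in 10 of 11 classes and I-HC32 highest in 6. In Int, complex II was above 0 in 7 of 12 classes (interval above 0 in 2 and below 0 in 2), where complexes I, IV and V were below 0 in all 12. The assembly factors were lowest in P-LC24 in all 11 classes. Cox7a2l, the most abundant of them over all cells, was above 0 in Prog in each of these classes. The sum without it was not examined by class.

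**Figure D4:**
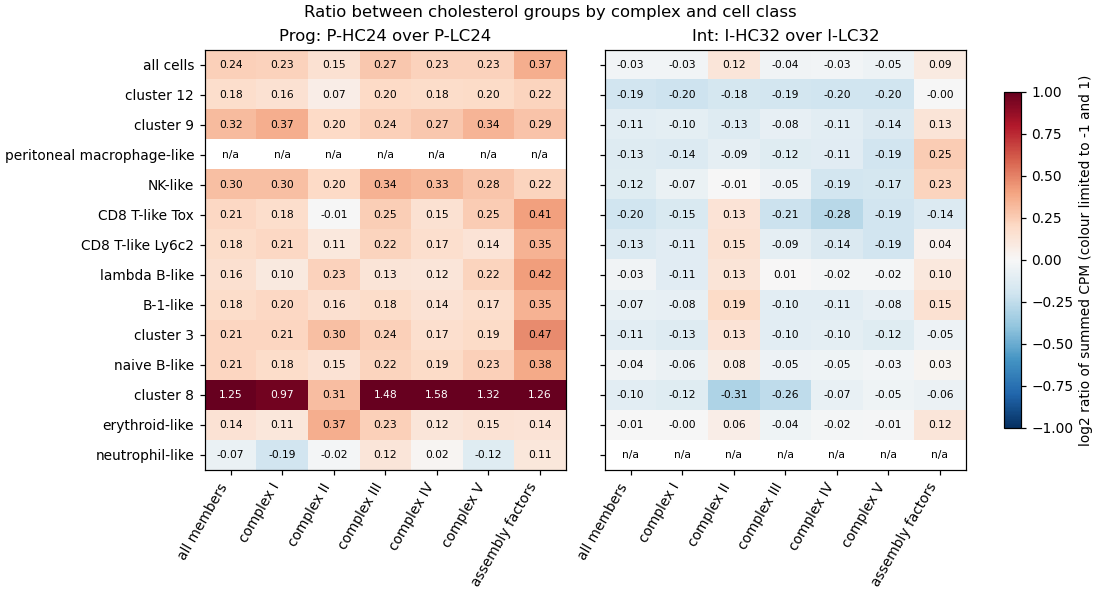
Log2 ratio of the summed CPM of each complex in Prog and Int, as a colour map (red above 0, blue below, colours limited to -1 and 1) for the classes that held 50 cells or more on either side. Prog ratios lie mostly above 0 and Int ratios mostly below, apart from complex II and the assembly factors.

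Some genes, named here because they varied little in sign, ran 1 way in nearly all classes. Cox7a2l was above 0 in Prog in 11 of 11 classes where it could be compared (interval above 0 in 10, median 0.57). Cox5a was above 0 in 11 of 11 with a median of 0.49, and the stalk subunit Atp5pb in 11 of 11, all with intervals above 0 and a median of 0.45. Going the other way, Ndufb1 was below 0 in 10 of 11 classes in Prog, with a median of -0.34, and in 11 of 11 in Int, with a median of -0.47. Atp5k, Cox6c, Uqcr10, Atp5mpl and Atp5e were also below 0 in Int in every class compared, with medians from -0.41 to -0.29. Over the genes compared in at least 9 classes, 36 of 72 were above 0 in all their classes in Prog (background 14.4% of 2609 genes). In Int none of 71 was above 0 in all (background 3.36% of 3005 genes) and 14 were below 0 in all (background 3.96%), so that most members had both signs. Atp5c1, the gamma subunit of the central stalk, was above 0 in 5 classes and below 0 in 6.

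Levels differed between cell types, and here each class was followed over the 4 libraries. These differ in diet and week and are not replicates of a single condition. Peritoneal macrophage-like cells held 15386 to 19357 CPM of the 90 genes, cluster 9 16168 to 20118, cluster 12 16583 to 18957 and NK-like cells 14019 to 19335. These 4 ranges overlapped. CD8 T-like Tox cells, at 12887 to 16695, overlapped all 4 by range, but lay below each of them within every library. Beside NK-like cells, the members took 1.45%, 1.67%, 1.48% and 1.29% of UMIs in CD8 T-like Tox cells against 1.57%, 1.93%, 1.52% and 1.40%. Naive B-like cells lay at 10949 to 13563 and B-1-like cells at 11627 to 14046, which overlapped each other, and the latter just reached the range of NK-like cells. Within each library B-1-like cells were above naive B-like cells, at 1.24%, 1.40%, 1.22% and 1.16% of UMIs against 1.17%, 1.36%, 1.12% and 1.09%. Cluster 8 (4628 to 11019), erythroid-like cells (6984 to 8343) and neutrophil-like cells (6107 to 6575) were lowest. In erythroid-like cells, haemoglobin genes took 29.5% to 44.7% of the UMIs that make up the CPM total. Hepatocyte-like cells reached 54362.5 CPM, but only P-LC24 held enough of them (32 cells).

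Each contrast below set 1 class against the mean of the other classes, in edgeR's quasi-likelihood test with the library as block, Benjamini-Hochberg adjustment over all genes tested (12088, of which 88 members) and a threshold of 0.05. Log2 fold changes in these contrasts are on edgeR's TMM scale and are given with their standard error (SE).

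In peritoneal macrophage-like cells nearly all members were higher than in the other classes on this scale. In a fit that admitted classes with 20 cells a library, 80 members were higher (background 40.1% of 12350 genes) and 0 lower (background 27.5%). This held for 17 of 17 members of complex V, 8 of 8 of complex III and 34 of 37 of complex I. Uqcr11 had 383, 335, 265 and 214 CPM there, a log2 fold change of 1.96 (SE 0.08, adjusted p = 4.65e-27 in edgeR). Ndufa1 gave 1.83 (SE 0.09) from 355, 362, 227 and 217 CPM. For both genes the 2 libraries of week 24 lay above the 2 of week 32. Against cluster 9, which carries monocyte markers, 50 members were higher (background 25.3%) and 4 lower (background 22.5%) on the TMM scale. On the CPM scale these classes lay together, with a mean over the libraries of 17502 for all members in peritoneal macrophage-like cells and 17562 in cluster 9, and 4982 and 5080 for complex I, so that the direction depends on the scale. Ndufa12, an accessory subunit of complex I, was at 97.2 to 114 CPM in peritoneal macrophage-like cells and 35.7 to 72.9 in cluster 9, with no overlap (log2 fold change 1.32, SE 0.12). Atpif1, the synthase inhibitor, was at 276.5 to 345.8 CPM in the former and 115.3 to 161.0 in the latter.

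Cluster 9 had 65 members higher (background 32.9%) and 4 lower (background 32.9%), with 12 of 13 of complex IV and 16 of 17 of complex V among the higher. Its assembly factors were split. Ndufaf7, a methyltransferase that acts in complex I assembly, had 50.03, 60.5, 80.5 and 76.5 CPM in cluster 9 and was found in 37.8% to 50.7% of its cells (log2 fold change 2.03, SE 0.11, adjusted p = 8.58e-20 in edgeR). In naive B-like cells it was at 14.1 to 18.5 CPM. Ndufaf4 at -1.10 (SE 0.20) and Ndufaf2 at -1.07 (SE 0.16) were lower in cluster 9 in the same test. Ndufb8 gave 1.09 (SE 0.07).

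Cluster 12 had 72 members higher (background 34.2%) and 2 lower (background 30.6%), among them all 17 of complex V and all 13 of complex IV that were tested, but 2 of 9 assembly factors. Cox5a was at 282, 429, 421 and 424 CPM there (log2 fold change 1.12, SE 0.09, adjusted p = 3.3e-14 in edgeR). The 2 that were lower were Ndufs4 and Ndufs3, at -0.28 (SE 0.08) and -0.19 (SE 0.07).

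The opposite held in neutrophil-like cells, with 4 members higher (background 22.1%) and 72 lower (background 38.5%) in the fit that admitted 20 cells a library. The complexes had median log2 fold changes of -1.60 for complex I, -0.64 for complex II, -1.15 for complex III, -0.71 for complex IV and -1.19 for complex V. Ndufaf1, Ndufaf4 and Ndufaf6 had 0 UMIs in all 4 libraries of these cells. Atp5l of complex V was among the 4 higher, with 510, 451, 488 and 291 CPM (log2 fold change 0.50, SE 0.12). Only 32 and 22 of these cells came from the week 32 libraries. Cluster 8 had 0 higher (background 22.5%) and 79 lower (background 18.2%), with every tested member of complexes III and V lower. Its cells had a low depth and a high mitochondrial share, whose part in these calls was not tested. Cox6b2 had 0 UMIs in the 659 cells of cluster 8. It is near the floor in naive B-like cells too, with 22 UMIs over 9030 cells.

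The B cell classes differed less. Directly compared, B-1-like cells had 37 members higher than naive B-like cells (background 22.2%) and 0 lower (background 19.1%), which were 14 of 37 of complex I, 7 of 13 of complex IV and 9 of 17 of complex V. Uqcr11 had 126, 128, 104 and 80.5 CPM in B-1-like cells and 95.5, 103, 78.6 and 60.1 in naive B-like cells. It was higher in the B-1-like cells of each library (log2 fold change 0.55, SE 0.09, adjusted p = 9.21e-06 in edgeR). Without P-HC24 the 37 became 18, without I-LC32 19, and with no block for the library 3. B-1-like cells also held more transcripts, with 150 to 188 UMIs of the 90 genes a cell against 65.4 to 75.6 in naive B-like cells. Their total depth differed the same way, with a median of 11644.0 to 12087.0 UMIs a cell against 4953.0 to 5810.0. Against the other classes, B-1-like cells had 27 members higher (background 30.8%) and 3 lower (background 19.1%), a share of higher genes near the background, and a mitochondrial limit of 5% turned this to 7 higher and 15 lower. Assembly factors took part, 6 of 9 being higher, with Ndufaf1 at 0.65 (SE 0.12) and Ndufaf4 at 0.53 (SE 0.11). Naive B-like cells had 4 higher (background 27.4%) and 28 lower (background 18.5%), 8 of the latter from complex V. Lambda B-like cells, which are led by lambda light chain genes, had 4 higher (background 17.6%) and 11 lower (background 12.5%). This direction turned to 9 higher and 6 lower when classes of 20 cells were admitted and to 1 higher and 0 lower with no block, and leaving out 1 library gave from 3 calls (without I-LC32) to 25 (without P-LC24).

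T and NK classes were mixed. Cluster 3 had 9 members higher (background 27.9%) and 16 lower (background 23.9%), but 17 higher and 16 lower when classes of 20 cells were admitted, and 7 higher and 8 lower without P-HC24. Cox7a2l was at its highest there among the classes, with 407, 619, 519 and 480 CPM (log2 fold change 0.79, SE 0.09, adjusted p = 3.8e-10 in edgeR). In NK-like cells it was at 189, 268, 244 and 305 CPM (-0.72, SE 0.11), so that the 2 lymphocyte classes did not overlap. Ndufs8, a core iron-sulphur subunit of complex I, was low in all 3 T cell classes. It had 31.2 to 39.6 CPM in cluster 3, 38.8 to 42.2 in CD8 T-like Ly6c2 cells and 47.1 to 57.0 in CD8 T-like Tox cells, against 72.9 to 88.7 in B-1-like cells, and was called lower in each of the 3 (-0.82, -0.60 and -0.46). CD8 T-like Ly6c2 cells had 17 higher (background 24.6%) and 7 lower (background 20.5%), CD8 T-like Tox cells 8 higher (background 23.6%) and 3 lower (background 18.2%), and NK-like cells 19 higher (background 20.7%) and 5 lower (background 18.2%). With a mitochondrial limit of 5% in place of 10%, the direction turned in the CD8 classes, to 7 higher and 18 lower in the Ly6c2 cells and 4 higher and 19 lower in the Tox cells. In NK-like cells Ndufa4 had 416, 588, 424 and 373 CPM (0.50, SE 0.08). Erythroid-like cells had 2 higher (background 14%) and 3 lower (background 4.23%), with Sdhb at -0.31 (SE 0.09) among the lower, and 10 higher and 1 lower when classes of 20 cells were admitted. On the CPM scale their sum was low, so that the CPM and TMM scales differ for these cells. Haemoglobin genes took 29.5% to 44.7% of the UMIs of erythroid-like cells, and CPM counts these in the total. The same cluster also held 5 of 5 B cell markers.

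Complex IV has subunits with tissue forms, and 3 of these were counted above the limit. Cox6a2, the heart and skeletal muscle form of subunit VIa, at chr7:127804607-127805559 (GRCm39, minus strand), was seen in 36 of 25359 kept cells. Of its 343 UMIs, 246 lay in 12 of the 427 cells of cluster 12, with up to 39 in 1 cell, and all 12 also held a UMI of Siglech, a marker of plasmacytoid dendritic cells, against 9 of the other 415 cells (2.17%). The 3 B-1-like cells with the gene held 49 of its UMIs, and all 3 held Siglech. Over all cells it had 182 UMIs in the P-LC24 library against 13 for P-HC24, a log2 ratio of -4.52 (-5.45 to -3.71) that rested on few cells.

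Cox6b2, the testis form of subunit VIb, at chr7:4754789-4756093 (GRCm39, minus strand), was found in 12.7% to 21.8% of cluster 12 cells in the 4 libraries and in 3.53% to 12.4% of cluster 9 cells, against 0.19% to 0.30% of naive B-like cells, which serve as the background. Cluster 12 gave a log2 fold change of 4.03 (SE 0.33) and cluster 9 of 2.76 (SE 0.44) in edgeR. Cox7a1, the heart and muscle form of subunit VIIa, was found in 3.16% to 10.7% of peritoneal macrophage-like cells and 0.16% to 0.38% of naive B-like cells. It was also found in 18 of 427 cluster 12 cells and 92 of 6480 B-1-like cells. These detection values are not corrected for depth. Median UMIs a cell ran over the libraries from 20769.0 to 27681.5 in peritoneal macrophage-like cells, 15488.0 to 20738.0 in cluster 12 and 4953.0 to 5810.0 in naive B-like cells. All 3 tissue forms stayed far below the widespread forms by level in all cells, where Cox6a1 was at 131 to 173 CPM and Cox6a2 at 0.2 to 4.7.

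Transcripts of the mitochondrial genome were set against the nuclear ones of the same complex. In all cells there were 2.28, 2.40, 2.69 and 2.34 mitochondrially encoded UMIs of complex I for each nuclear one (P-LC24, P-HC24, I-LC32, I-HC32), and 5.91, 6.63, 7.97 and 6.77 of complex IV. I-LC32 was the highest for both. The classes were far apart. For complex I the ratio was 0.33 to 0.45 in neutrophil-like cells, 0.926 to 1.204 in cluster 9, 1.22 to 1.33 in cluster 12, 2.37 to 2.97 in naive B-like cells and 2.87 to 3.26 in B-1-like cells, with no overlap between neutrophil-like cells and any other of these. Cluster 8 had 4.81 to 8.32, and the 32 hepatocyte-like cells of P-LC24 had 0.193. A limit on the mitochondrial share was used to keep cells, so that these ratios are cut from above.

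**Figure D5:**
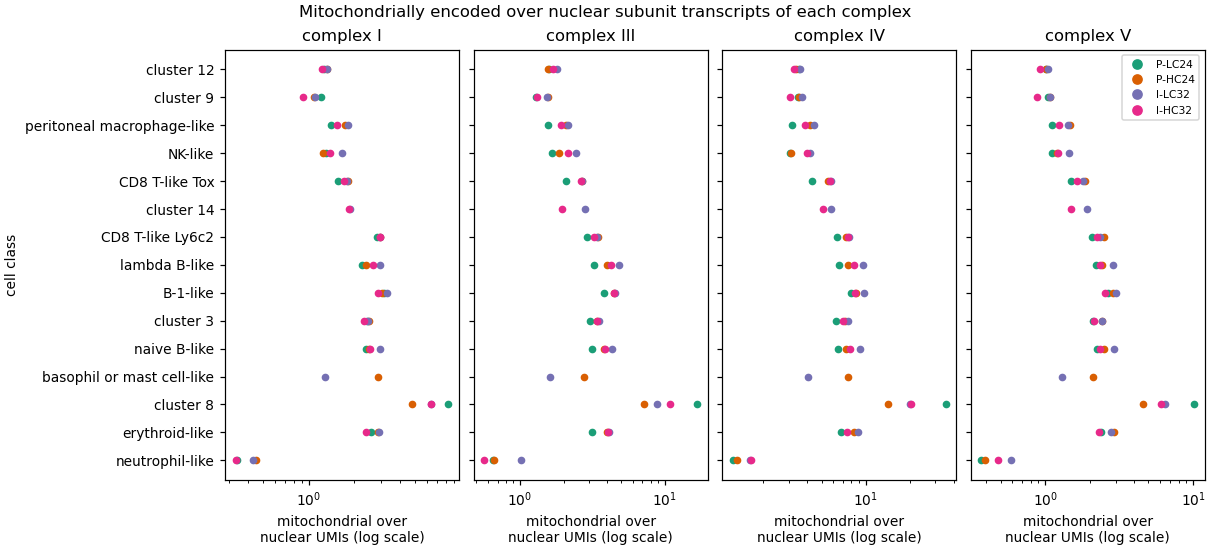
Mitochondrially encoded UMIs for each nuclear UMI of the same complex, by cell class (log axes), 1 point for each library with at least 20 cells, for classes with 2 or more such libraries. Of the classes drawn, for complex I the neutrophil-like cells lie lowest at 0.33 to 0.45 and cluster 8 highest at 4.81 to 8.32.

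Other gene lists were described in the same way, by the median log2 ratio in Prog and Int over all cells. Glycolysis genes had 0.52 and 0.29, with Gapdh at 0.93 in Prog, and mitochondrial carriers 0.50 and 0.16, with 7 of 7 genes above 0 in both. These 2 lists were above the members in both comparisons. The 13 mitochondrially encoded genes had 0.32 and -0.23, all 13 being below 0 in Int. Citric acid cycle genes had 0.02 and 0.04, electron carriers and cytochrome subunits 0.14 and 0.14, and biogenesis regulators, among them the gene for NRF1, -0.39 and -0.16. Assembly factors outside the gene set stayed near 0. Those of complex I had -0.11 and -0.04, of complex II 0.10 and -0.01, of complex III -0.09 and 0.02, of complex IV -0.02 and -0.04, and of complex V 0.10 and 0.09.

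Lists of general use moved with the members in Prog. Mitochondrial ribosomal proteins had 0.25 and 0.03, cytosolic ribosomal proteins 0.26 and 0.00, and proteasome subunits 0.33 and 0.06. Stress lists differed, with immediate early genes at 0.38 and 0.59 and heat shock genes at -0.05 and 0.66, with 7 of 8 heat shock genes past 1.2-fold higher in Int. The part of dissociation in these values was not tested.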

How the data were processed

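Single cells from pooled liver FNA biopsies were profiled with the 10x 3′ v3.1 kit, 1 library for each of 4 groups. The deposited matrices hold raw UMI counts for each gene and barcode, which the authors made with Cell Ranger 9.0.1 against GRCm39, and Seurat 5.3 is also listed in the submitters' processing notes. Barcodes with at least 500 UMIs, 300 genes and at most 10% mitochondrial UMIs were kept, and expected doublets (0.8% for each 1000 cells) were removed. Cells were normalized with sctransform 0.4.2 in Seurat 5.3.0 (R 4.3.3), integrated over libraries and clustered on 30 components at resolution 0.4, with the members left out, into 18 clusters. Levels (CPM) are UMIs scaled to a common library total. Ratios between libraries carry exact conditional Poisson 95% intervals, which cover counting error only, and a fold of 1.2 was used as the limit. Cell classes were compared on summed counts with edgeR 4.0.16 (quasi-likelihood, TMM, library as block, at least 50 cells), and DESeq2 1.42.0 served as an alternative. The edgeR step was tested on simulated data, drawn from a common profile with some genes changed in naive B-like cells only. Libraries differed there in depth alone, so the block for the library was not put to the test. The 4 libraries come from 2 sets of mice sampled at 2 times. With the library as block, p-values measure how differences between classes vary over the libraries, and they hold no spread between single animals. For genes named in each comparison, those with the largest differences either way within each complex (all cells) or contrast (classes), the most abundant gene of each complex, the 4 Sdh genes and the tissue isoforms were taken, and others, such as Ndufs1, Ndufv1, Ndufs8, Atp5md and Cox7c, were named after their values were seen. The members and lists were chosen with earlier results of these data known. Gene positions came from the GRCm39 annotation and promoters from RefSeq. A gene that the rule for named genes selects is not reported here.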

Additional observations from a re-analysis of the deposited data

Results flagged for a closer look

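The summed ratios of Prog and Int had opposite signs for all members and for complexes I, III, IV and V, but the same sign for complex II (0.15 and 0.12) and the assembly factors (0.37 and 0.09). Prog minus Int was 0.27 on the log2 scale for all members, 0.26 for complex I, 0.30 for complex III, 0.25 for complex IV and 0.28 for complex V. With 1 library a group this difference was not tested. In the assembly factor sum the differences were nearly all those of Cox7a2l. It had 284 and 412 CPM in P-LC24 and P-HC24, and 346 and 378 in I-LC32 and I-HC32.

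Barcodes over the mitochondrial limit, which entered no comparison, also held UMIs of the members. The summed level was 3866 CPM over 150 such barcodes in P-LC24, 6734 over 355 in P-HC24, 4819 over 260 in I-LC32 and 4078 over 837 in I-HC32, in each library below the level of its kept cells.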

How the results depend on the processing

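The summed Prog ratio of 0.24 kept its direction under every alternative tried. It was 0.31 with a mitochondrial limit of 5%, 0.26 scaled without mitochondrial genes, 0.33 without mitochondrial, ribosomal, immunoglobulin and haemoglobin genes, 0.47 relative to the median gene, 0.19 with each cell weighted equally, 0.27 with classes weighted equally and 0.22 with class shares fixed. The Int ratio of -0.03 was -0.0408 with a limit of 20%, -0.0389 without mitochondrial genes, -0.0804 without the 4 gene groups, -0.0137 relative to the median gene, -0.0433 with cells and -0.11 with classes weighted equally, and -0.0787 with class shares fixed. The 43 members higher in Prog became 71 relative to the median gene and 4 at 1.5-fold, and the 2 lower became 1 without the 4 gene groups, 0 relative to the median gene, 4 with cells and 0 with classes weighted equally, 1 with shares fixed and 0 at 1.5-fold. In Int, the 1 higher became 0 with a limit of 5%, without the 4 gene groups, with shares fixed and at 1.5-fold, and the 4 lower became 8 without the 4 gene groups, 11 with classes weighted equally, 10 with shares fixed, 7 with at least 20 UMIs and 0 at 1.5-fold. Fixed class shares, classes of 20 cells and leaving out the erythroid-like class were chosen after seeing the data. Within classes, among ratios of at least 0.05 in size, 81 of 81 in Prog and 66 of 66 in Int kept their sign with free RNA subtracted, and relative to the median gene 81 of 81 and 63 of 66 did.

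Counts of members called between classes changed as follows. With DESeq2 they were 57 for B-1-like against naive B-like, 18 for CD8 T-like Tox, 39 for cluster 3, 26 for lambda B-like and 59 for naive B-like. With no filter on low counts they were 15 for CD8 T-like Ly6c2, 2 for erythroid-like and 15 for naive B-like. With no block they were 3 for B-1-like against naive B-like, 9 for B-1-like, 4 for CD8 T-like Ly6c2, 3 for CD8 T-like Tox, 6 for NK-like, 10 for cluster 3, 1 for erythroid-like, 1 for lambda B-like (higher, where most had been lower) and 3 for naive B-like. Asking for 1.5-fold left 2 for B-1-like in both contrasts, 2 for CD8 T-like Ly6c2, 0 for CD8 T-like Tox, 1 (lower) for NK-like, 30 for cluster 12, 2 for cluster 3, 31 for cluster 9, 2 for erythroid-like, 0 for lambda B-like and 0 for naive B-like.

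Leaving out 1 library gave 18 to 41 for B-1-like against naive B-like, 15 to 25 for B-1-like, 14 to 21 for CD8 T-like Ly6c2, 5 to 14 for CD8 T-like Tox, 15 to 28 for cluster 3, 2 to 5 for erythroid-like, 3 to 25 for lambda B-like and 17 to 36 for naive B-like. P-HC24 and I-LC32 were the libraries whose removal lowered most of these by over 1.5 times. I-HC32 did so for B-1-like (17), CD8 T-like Ly6c2 (14) and lambda B-like (8), and the removal of P-LC24 raised lambda B-like to 25. Resolution 0.2 gave 59 for B-1-like against naive B-like, 21 for CD8 T-like Tox (14 lower), 44 for cluster 3, 11 for erythroid-like, 31 for lambda B-like and 58 for naive B-like. No integration gave 46 for B-1-like and 8 for erythroid-like. A mitochondrial limit of 5% gave 22 for B-1-like, 25 for CD8 T-like Ly6c2 and 23 for CD8 T-like Tox, mostly lower in all 3, and 40 for cluster 3, 8 for erythroid-like, 36 for lambda B-like and 59 for naive B-like. Admitting classes of 20 cells gave 33 for cluster 3, 11 for erythroid-like and 15 for lambda B-like, each with more higher than lower. Clusters 8, 9 and 12 stayed within 1.5 times of their counts and kept their direction in every alternative run for them. The exception was the 1.5-fold limit named above for clusters 9 and 12. Neutrophil-like and peritoneal macrophage-like cells entered only the fit that admitted 20 cells a library. Their counts stayed within 1.5 times and kept direction when 1 library was left out, and no other alternative was run for them. Why the other classes moved was not tested. No paired analysis was possible because each group was pooled into 1 library, which leaves no pairs of replicates between groups.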
